A study of Hordeum vulgare with 12 samples.

Results

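Of the 99518 VRS5 peaks on barley chromosomes 1H to 7H, 2452 (2.46%) belonged to pairs whose summits lay from 5.1 to just under 5.35 kb apart. They were chosen by the measured distance between summits: a peak was taken if another summit of the same chromosome lay at that distance, and left out if a summit also lay 9.9 to 10.25, 3.6 to 3.75 or 6.45 to 6.65 kb away, which are other distances that recur in this list. The distance rule alone took 2619 peaks in 1315 pairs, and the exclusion removed 167 of these peaks. Both partners were kept in 1156 pairs. A further 149 members had lost their partner to the exclusion, and 9 members belonged to 2 pairs each. The same rule with 4.6 to 4.85 kb gave 1480 comparison peaks in 669 pairs, and with 5.6 to 5.85 kb 1283 peaks in 597 pairs as a second comparison. Members and comparison peaks overlapped in 40 cases, and members and peaks of the second comparison in 37, and these were left out of the differences between sets of peaks. Differences between sets of pairs keep all pairs.

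VRS5, the barley ortholog of maize TEOSINTE BRANCHED 1 (TB1), is a TCP transcription factor that restrains the outgrowth of tillers and of lateral spikelets. TCP proteins bind short GC-rich sequences in DNA, and targets are usually sought among genes near their binding sites. DAP-seq offers fragmented genomic DNA, stripped of chromatin, to a tagged factor that was synthesised outside the cell, and sequences the fragments that stay bound. The chromatin of the tissue is thus not represented in the peaks.

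The data came from 12 libraries, 6 with TB1-FLAG (VRS5 of cultivar Bowman) and 6 with GFP-FLAG as control bait, both made in wheat germ extract. All used DNA of cultivar Morex from developing inflorescences, 100 mg per replicate, 4 weeks after sowing. Reads were mapped to MorexV3, pooled by bait, and peaks called by the authors with q below 1e-10 against GFP-FLAG, so that each peak has 1 value, no replicate error and no depth per library. Intervals given here are 95% intervals for counting error only, treat peaks as independent although partners lie side by side, and were not adjusted for the number of differences examined, which were 16 between peaks with each comparison set and further ones between pairs and within classes. The sequence of the peaks was not used here, as no genome of the build was at hand.

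The pairs were spread over the whole window rather than at a single distance. Their median distance was 5226 bp, with quartiles of 5170 and 5284 bp. In classes of 50 bp, pairs with both peaks kept numbered 116 in the class just below the window, then 194, 232, 273, 228 and 229 in the 5 classes of the window, and 143 in the class just above it. Counts were thus highest near the middle of the window and fell at both of its edges. In finer classes of 10 bp, the 25 classes of the window held 33 to 59 pairs each, and the 20 classes nearest to it, 10 on each side, held 17 to 35. Just inside the lower limit, 36 pairs lay in the first 10 bp of the window and 24 in the last 10 bp before it. At the upper limit, 58 pairs lay in the last 10 bp of the window and 32 in the first 10 bp beyond it. These counts chose the distance and are given as a description.

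**Figure D1:**
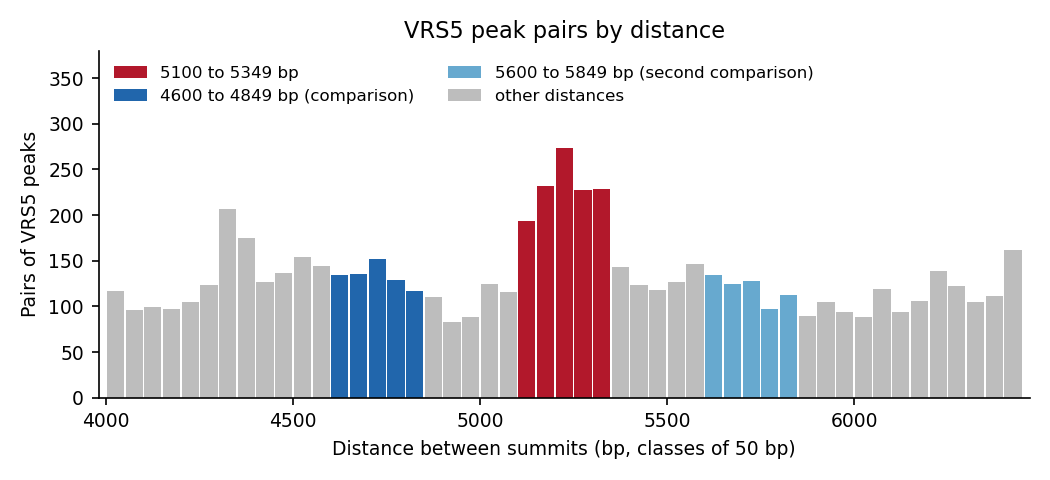
Number of VRS5 peak pairs with both peaks kept (vertical axis) by distance between summits (horizontal axis, bp, classes of 50 bp). The red classes of the window hold 194 to 273 pairs each, against 117 to 152 in the comparison classes (dark blue) and 97 to 134 in those of the second comparison (light blue).

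Compared with windows of equal width, the 1156 pairs were 1.73 times the 669 comparison pairs and 1.94 times the 597 pairs of the second comparison. The adjoining windows held 522 pairs at 4.85 to 5.1 kb and 657 at 5.35 to 5.6 kb. Counts varied between the other windows of the plot of pairs by strength too, from 737 pairs at 4.35 to 4.6 kb to 496 at 5.85 to 6.1 kb, so that the size of the ratio depends on the window chosen, and both comparisons are shown.

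The ratio of member pairs to pairs of both comparison windows was higher where the peaks had a low q. Where neither peak had a q below 1e-20, 487 member pairs stood against 351 comparison pairs, a ratio of 1.39. With 1 such peak, there were 510 pairs against 258 (ratio 1.98), and with both peaks below 1e-20, 159 against 60 (ratio 2.65). Against the second comparison the same ratios were 1.76, 2.04 and 2.24, which kept the order with smaller steps. The adjoining windows held 218, 242 and 62 pairs of these classes at 4.85 to 5.1 kb and 297, 285 and 75 at 5.35 to 5.6 kb. Against the first of these the ratio was not lowest where neither peak was below 1e-20, so that the order did not hold for every window. These ratios were not tested. Single members also had a q below 1e-20 more often, at 36.0% against 28.0% of comparison peaks and 32.7% of the second comparison. The order of the ratios is thus not a result separate from that share. Only 28 pairs had both peaks below 1e-30, against 7 and 10. Within the window, the share of pairs with both peaks below 1e-20 was between 12.1% (95% Wilson interval 8.48 to 16.9) in the second class of 50 bp and 16.2% (12.0 to 21.5) in the fifth, and the intervals of all 5 classes overlapped.

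**Figure D2:**
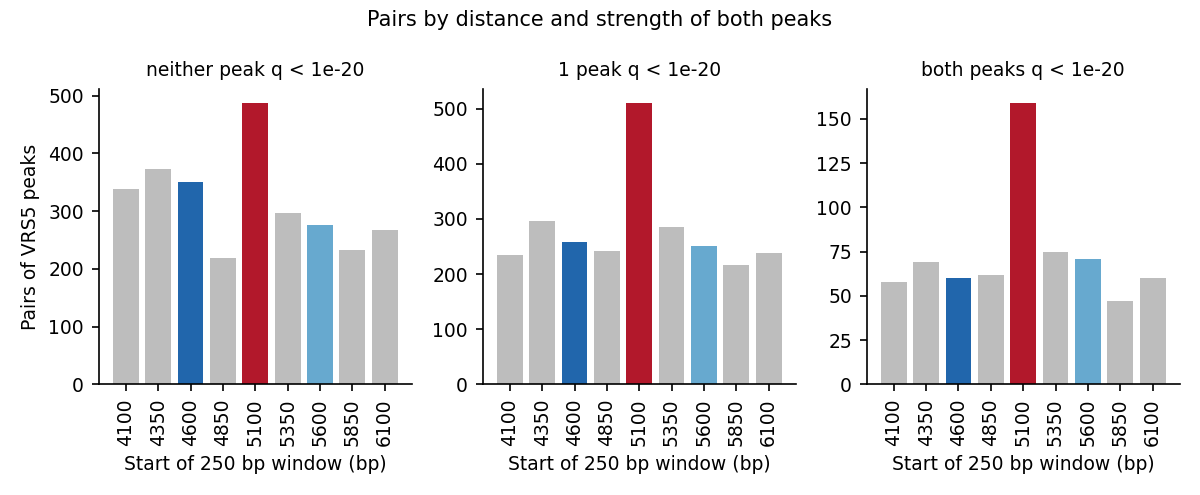
Number of pairs (vertical axis) in windows of 250 bp, named by their start in bp (horizontal axis), for pairs with neither, 1 or both peaks below a q of 1e-20; each panel has its own scale from 0. The window that starts at 5100 bp (red) holds 487, 510 and 159 pairs, more than any other window shown in its panel.

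Member peaks were slightly more enriched than other paired peaks. Their median fold enrichment over GFP-FLAG, the authors' ratio of the pileup to the local background with 1 added to each, was 4.53 (95% order-statistic interval 4.48 to 4.58), and ranged from 2.78 to 11.3. For comparison peaks it was 4.35 (4.30 to 4.40), for the second comparison 4.38 (4.31 to 4.46), and over all peaks of 1H to 7H 4.38. With shared peaks left out, members exceeded comparison peaks by 0.184 in median fold enrichment (95% interval 0.111 to 0.257) and the second comparison by 0.159 (0.0698 to 0.248). The lower quartile was 3.97 for members against 3.86 in both comparisons, and the upper quartile 5.40 against 5.08 and 5.22.

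A q below 1e-20 was reached by 882 members, or 36.0% (34.1 to 37.9), where 31.9% of all peaks of 1H to 7H reached it. The share exceeded that of comparison peaks by 8.14 percentage points (95% Newcombe interval 5.11 to 11.1) and that of the second comparison by 3.52 (0.263 to 6.71). A fold enrichment above 7 was found in 156 members, 6.36% (5.46 to 7.4), against 5.69% of all peaks. Members with the highest values were few. Only 4 exceeded a fold enrichment of 10, 0.163% (0.0635 to 0.419) against 0.452% of all peaks, and the strongest peaks of the whole list were thus not gathered here. This was not particular to members. The share was 0.270% in comparison peaks and 0.156% in the second comparison. The intervals of the differences from members included 0 in both (-0.558 to 0.198 and -0.430 to 0.290 percentage points).

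The height of the reads and the background were examined apart, because both enter the fold enrichment. The median pileup of VRS5-FLAG reads was 54 in members, 52 in comparison peaks, 53 in the second comparison and 54 over all peaks of 1H to 7H. Members were thus not taller than the peaks of the whole list. The median background was 10.4 in members and 10.9 over all peaks. With shared peaks left out, the members' median was higher than that of comparison peaks by 3 reads (1.91 to 4.09) and the background computed back from pileup and fold enrichment differed by -0.155 (-0.421 to 0.111). Against the second comparison the pileup differed by 1 read (-0.384 to 2.38), and the background of members was lower (difference -0.491, interval -0.710 to -0.271). Within the third of peaks with the lowest background, members had a median fold enrichment of 5.11 and comparison peaks 4.74, a difference of 0.370 (0.245 to 0.495). In the middle class the difference was 0.307 (0.188 to 0.426), and in the class with the highest background it was 0.0509 (-0.0413 to 0.143), where the interval included 0. The median member was 265 bp wide, which exceeded comparison peaks by 11.5 bp (4.21 to 18.8) and differed from the second comparison by -3.5 bp (-10.3 to 3.28). Over all peaks of 1H to 7H the median width was 273 bp, above that of members.

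**Figure D3:**
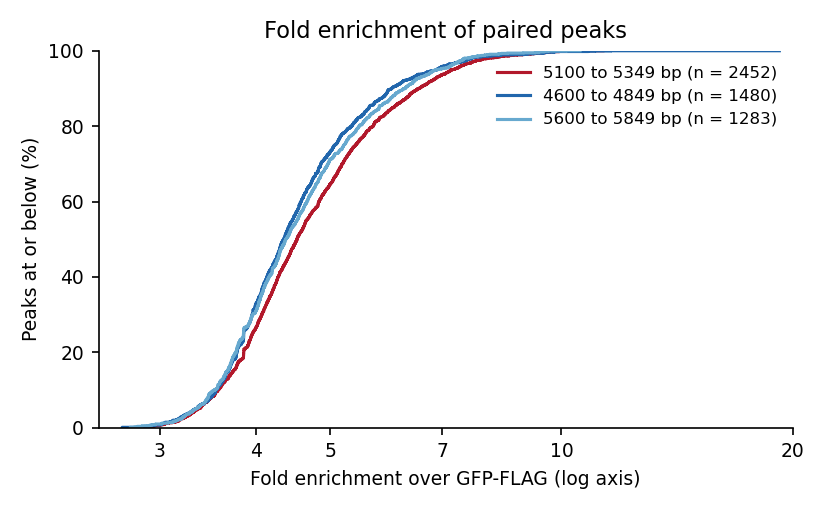
Share of peaks at or below a given fold enrichment (vertical axis, %) against fold enrichment over GFP-FLAG (horizontal axis, logarithmic) for peaks in pairs 5.1 to 5.35 kb apart (red, n = 2452) and for both comparisons (dark blue, n = 1480; light blue, n = 1283). The red curve runs to the right of the others between the medians of 4.35 to 4.53 and the upper quartiles of 5.08 to 5.40.

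Strong peaks were not regularly paired with strong peaks. The stronger peak had a median fold enrichment of 5.19 and the weaker 4.08, and the median ratio between partners was 1.22. A gap follows from sorting the partners. It was slightly smaller in comparison pairs, with medians of 4.87 and 3.97 and a ratio of 1.20. The median absolute log2 ratio of members exceeded theirs by 0.0347 (0.00751 to 0.0619). In the second comparison the ratio was like that of members, at 1.22, with medians of 4.97 and 3.96. Across the 1156 pairs, the log2 fold enrichments of partners had a Pearson correlation of 0.0640 and the fold enrichments a Spearman correlation of 0.0493, which describes pairs that share libraries and neighbouring background and is not a test. The comparison pairs gave 0.0725 and 0.0699. Partners more than 2-fold apart made up 38 pairs, 3.29% (2.40 to 4.48), against 2.69% (1.71 to 4.21) of comparison pairs and 1.84% of the second comparison. The stronger peak lay at the lower coordinate in 587 of 1156 pairs, 50.8% (47.9 to 53.7), and thus on either side about equally often. The log2 GFP-FLAG background of partners had a Pearson correlation of 0.110 in member pairs, 0.296 in comparison pairs and 0.218 in the second comparison. The median absolute log2 ratio of background between partners was 0.32 (0.30 to 0.35) in member pairs, 0.26 (0.24 to 0.29) in comparison pairs and 0.32 (0.29 to 0.35) in the second comparison, which member pairs thus matched by this measure. These differences were not tested.

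**Figure D4:**
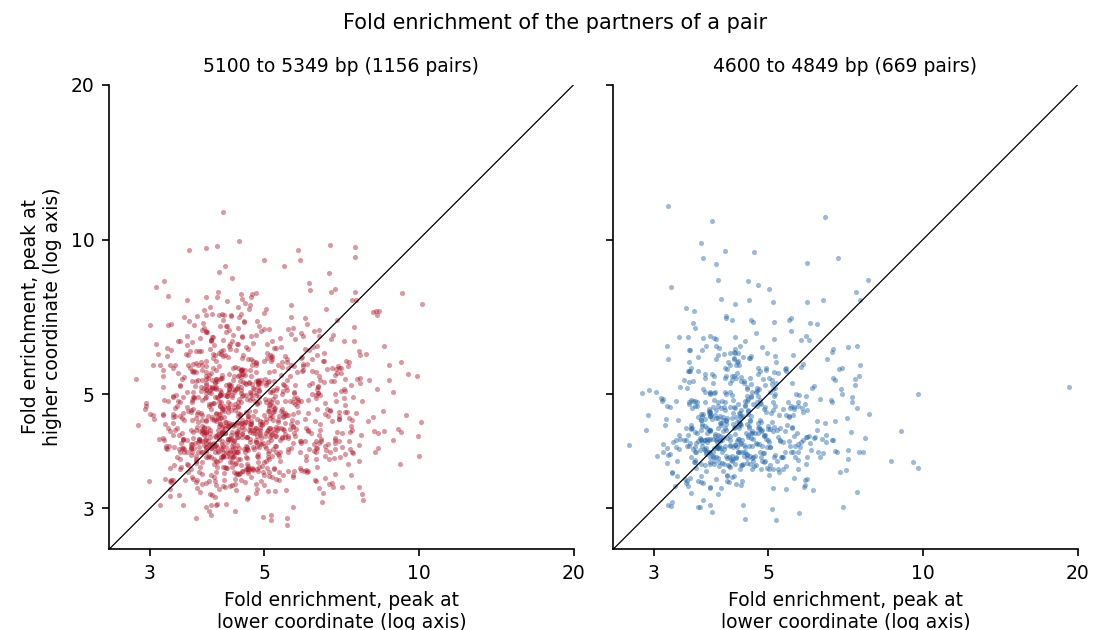
Fold enrichment of the peak at the higher coordinate (vertical axis, logarithmic) against that of its partner at the lower coordinate (horizontal axis, logarithmic), 1 point per pair, with the line of equal values, for 1156 member pairs (left) and 669 comparison pairs (right). The points scatter on both sides of the line in both panels, with Pearson correlations of 0.0640 and 0.0725 on the log2 scale.

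The 5 pairs whose weaker peak was strongest are given in full. On 1H, the peaks from 468277693 to 468278055 and from 468283004 to 468283358 had summits 5333 bp apart. The first was enriched 9.27-fold, with a pileup of 87 reads over a background of 8.49, and the second 7.87-fold, with 68 reads over 7.77. The nearer summit lay 15.5 kb from the protein-coding gene LOC123446041. On 6H, peaks from 401945069 to 401945309 and from 401950219 to 401950469, 5166 bp apart, were enriched 7.54-fold and 7.63-fold. The nearest protein-coding gene, LOC123403746, lay 74.9 kb away. A second pair of 6H, from 453348140 to 453348466 and from 453353362 to 453353650, was 5206 bp apart and enriched 7.51-fold and 7.90-fold, at 27.5 kb from LOC123402465. In both pairs of 6H the partners were of nearly equal strength. On 1H, peaks from 232592806 to 232593341 and from 232598208 to 232598534, 5191 bp apart, were enriched 7.51-fold and 9.66-fold and lay 115 kb from LOC123429507. On 7H, peaks from 220441832 to 220442098 and from 220447036 to 220447265, 5210 bp apart, were enriched 7.51-fold and 9.26-fold, and no protein-coding gene lay closer than LOC123410125 at 1127 kb. All 5 pairs thus lay beyond 15 kb from a protein-coding gene, as most members did.

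The strongest single member was part of an uneven pair. It lay on 4H from 238939682 to 238940025, with a pileup of 116 reads over a background of 9.33 and a fold enrichment of 11.3. Its partner from 238934555 to 238934860 had 79 reads over a background of 18.2 and a fold enrichment of 4.17. The nearest protein-coding gene, LOC123448222, was 459 kb away. The partner was also the middle of a row of 3 summits, with a further peak on the other side at a distance of 5268 bp and a fold enrichment of 6.41.

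Rows of 3 summits were rare. The 9 members that belonged to 2 pairs all had a partner on each side, with outer summits 10401 to 10584 bp apart. Rows whose outer summits lie 9.9 to 10.25 kb apart are removed by the rule, so this number is a lower one by construction. On 1H, the middle summit at 331712334 was enriched 8.31-fold, with partners at 5187 and 5214 bp that were enriched 3.19-fold and 3.93-fold. On 6H, the middle summit at 88855983 was enriched 7.17-fold, with partners enriched 3.96-fold and 4.91-fold. Among the other rows, the middle peak was strongest only around 460991659 on 7H, at 4.92-fold against 4.06-fold and 4.27-fold. In the rest it was not the strongest. It was the weakest in the row of 4H, at 4.17-fold against 6.41-fold and 11.3-fold. The same held around 62882525 on 2H and 381941367 on 6H, with middle peaks enriched 4.06-fold and 3.62-fold. A strong middle peak was thus not the rule.

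Member pairs seldom lay next to each other, but most had other VRS5 summits around them. Neighbouring pairs began a median of 2.38 Mb apart, and 14 of 1149 gaps were 20 kb or shorter. In 417 of 1156 pairs, 36.1% (33.4 to 38.9), no other VRS5 summit lay between the partners or within 20 kb on either side, a share that differed from comparison pairs by -0.400 percentage points (-5.00 to 4.14) and from the second comparison by 5.25 (0.566 to 9.80). A further summit lay between the partners in 78 pairs, 6.75% (5.44 to 8.34), against 6.73% of comparison pairs and 10.9% of the second comparison. A greenscreen region, where GFP-FLAG libraries held many reads and peaks were removed, touched the interval between the summits in 4 pairs, 0.346% (0.135 to 0.886), against 6 comparison pairs and 7 of the second comparison. Within 5 kb of such a region lay 3.22% of members (2.59 to 4.0), 4.66% of comparison peaks, 4.99% of the second comparison and 6.40% of all peaks. Both comparisons were thus below all peaks too. Members differed from comparison peaks by -1.49 percentage points (interval -2.86 to -0.233) and from the second comparison by -1.83 (-3.33 to -0.489).

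Every chromosome held such pairs. They numbered 138 on 1H, 173 on 2H, 191 on 3H, 164 on 4H, 149 on 5H, 158 on 6H and 183 on 7H, or 25.3 pairs per 100 Mb on 5H to 30.7 on 3H. Members made up 2.76% of the peaks of 3H (2.5 to 3.03) and 2.29% of those of 5H (2.05 to 2.55), the highest and the lowest share, and these intervals overlapped slightly. With each chromosome cut into 10 equal segments and the chromosomes combined, the share was highest in the third segment, at 3.01% (2.71 to 3.35), and in the eighth, at 2.91% (2.61 to 3.24). It was lowest in the first, at 2.01% (1.73 to 2.35), and the last, at 2.06% (1.75 to 2.42). Comparison peaks did not have these maxima, with 1.41% (1.20 to 1.65) in the third and 1.5% (1.29 to 1.75) in the eighth segment. They were highest in the sixth, at 1.89% (1.65 to 2.17). The second comparison was not examined by segment. In the first segment comparison peaks had 1.44% (1.20 to 1.73) and in the last 1.14% (0.914 to 1.41). Their share over 1H to 7H was 1.49%, so that only the last segment was low in comparison peaks too. The share of members that lay in the first or last segment differed from that of comparison peaks by -0.701 percentage points (-2.93 to 1.44). This interval included 0 and does not show that both sets had the same low ends. In bins of 10 Mb, the median was 6 members and 32 of 424 bins had 0. The fullest bins, both on 3H, from 170000001 to 180000000 and from 540000001 to 550000000, held 18 members each among 257 and 250 peaks.

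**Figure D5:**
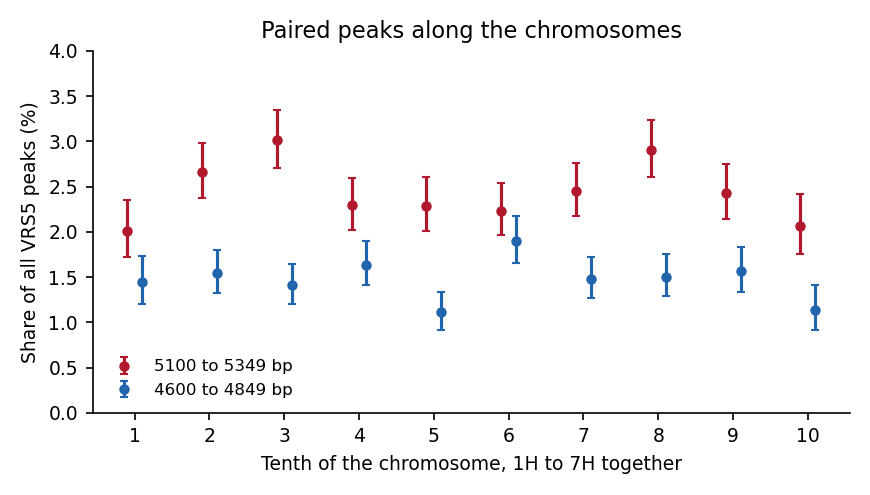
Share of all VRS5 peaks of a segment (vertical axis, %) that belonged to pairs 5.1 to 5.35 kb apart (red) or to comparison pairs (blue), by segment of the chromosome, 1 to 10 from the lower to the higher end (horizontal axis, 1H to 7H together); bars are 95% Wilson intervals. The red points lie at 3.01% and 2.91% in segments 3 and 8 and at 2.01% and 2.06% in the end segments.

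Few members lay close to genes. The median member summit was 76.5 kb (72.6 to 81.5) from the nearest of the 30627 RefSeq protein-coding genes of 1H to 7H, and the median comparison summit 76.2 kb (69.1 to 84.9). The median was 83.9 kb (75.7 to 90.1) in the second comparison and 80.1 kb over all peaks. By the median, members were thus not farther from genes than all peaks. Over 100 kb from such a gene lay 40.8% of members and 42.5% of all peaks. Within 5 kb of such a gene lay 44 members, 1.79% (1.34 to 2.40), where all peaks had 4.42%. The difference was -1.27 percentage points from comparison peaks (interval -2.39 to -0.289) and -1.43 from the second comparison (-2.65 to -0.389). Within 15 kb lay 203 members, 8.28% (7.25 to 9.44), against 11.8% of all peaks. Here the difference from comparison peaks was -1.42 percentage points (-3.36 to 0.432), which included 0, and that from the second comparison was -2.15 (-4.24 to -0.200). By q, the members within 15 kb were 8.81% (7.16 to 10.8) from 1e-10 to 1e-15, 6.64% (4.92 to 8.92) from 1e-15 to 1e-20 and 9.10% (7.36 to 11.2) below 1e-20. In comparison peaks they were 10.6, 9.91 and 8.23%, and in the second comparison 10.3, 8.63 and 11.7%. The interval of the difference from comparison peaks included 0 in each class, and its sign turned in the last, whereas the values of members were below those of the second comparison in each class, which was not tested. When pairs were sought among peaks below 1e-20 alone, 39 of 360 members lay within 15 kb of a gene, 10.8% (8.03 to 14.5), and 4 of 139 comparison peaks, 2.88% (1.12 to 7.17). Against comparison peaks, the share of members within 15 kb of a gene was thus lower or higher according to the q threshold, and this threshold was not tried with the second comparison.

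Genes between the summits were rare as well. The interval from summit to summit touched an annotated gene in 16 pairs, 1.38% (0.854 to 2.24), which were 7 pairs with a protein-coding gene, 8 with a pseudogene and 1 with a long non-coding RNA. Comparison pairs did so in 2.09% of cases, a difference of -0.709 percentage points (-2.20 to 0.490), and the second comparison in 3.18% (difference -1.80, interval -3.61 to -0.378). Of the 17 genes touched, 6 lay whole between the summits. Thus LOC123443866, a protein-coding gene of 3H from 360622543 to 360624908, lay between summits at 360619974 and 360625116 that were enriched 5.09-fold and 4.64-fold. LOC123447191 of 4H, from 576465112 to 576466196, lay between summits enriched 4.49-fold and 3.52-fold. On 3H, LOC123441189, from 616980846 to 616984262, lay with the tRNA gene TRNAI-AAU between summits enriched 4.08-fold and 3.28-fold.

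Member summits fell inside protein-coding genes in 6 cases, 0.245% (0.112 to 0.533), against 0.786% of all peaks. The difference from comparison peaks was -0.307 percentage points (-0.860 to 0.0941), which included 0. That from the second comparison was -0.795 (-1.54 to -0.273). LOC123429679 of 2H, from 91916263 to 91954946, held both summits of a pair, at 91917090 with a fold enrichment of 7.07 and at 91922380 with 5.07. LOC123428881 of 1H, from 212419591 to 212435493, also held both, with fold enrichments of 4.40 and 5.10. LOC123446195 on 4H and LOC123409184 on 7H each held 1 summit, enriched 4.26-fold and 3.48-fold. Exons and introns were not told apart, and the annotation used here gives these genes no function.

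Both summits of a pair lay within 15 kb of the same protein-coding gene in 76 pairs, 6.57% (5.28 to 8.15), which involved 84 of the 30627 genes, 0.274%. This share was not computed for comparison pairs. Either summit lay within 15 kb of such a gene in 10.3% of member pairs (8.67 to 12.2). For comparison pairs this was 10.9% and for the second comparison 14.1%. With pairs sought in the whole list, members thus had no excess near genes by this measure. With pairs sought below 1e-20 alone, the share of single members near genes was above that of comparison peaks, as given above. The strongest pair with both summits near the same gene, on 2H, had summits at 619600474 and 619605805, 5331 bp apart and enriched 8.25-fold and 7.28-fold. It lay in a group of 5 genes that were all within 15 kb of both summits. Of these, LOC123430878, from 619608136 to 619610454, was the closest, at 2.33 kb from the second summit, and LOC123430876, from 619595682 to 619596818, lay 3.66 kb from the first on the other side. On 2H, LOC123426725, from 475636111 to 475651242, had summits 11.6 and 6.36 kb away on its side of lower coordinates, enriched 6.68-fold and 8.61-fold. On 4H, LOC123448926, from 453580905 to 453587283, had summits 13.7 and 8.57 kb away, enriched 6.01-fold and 7.05-fold. On 6H, LOC123401735, from 378091202 to 378094727, had summits 6.61 and 11.9 kb beyond its end of higher coordinates, enriched 7.0-fold and 5.62-fold. LOC123409184 of 7H, named above for the summit inside it, had 2 further summits at 3.61 and 8.89 kb, enriched 5.70-fold and 8.74-fold, in a row of 3 with spacings of 5286 and 5298 bp. LOC123439750 on 3H, from 169584863 to 169585671, had summits 0.947 and 6.15 kb away, enriched 5.29-fold and 6.55-fold. SOC1-like, a MADS-box gene matched to LOC123437294, had 0 member summits within 15 kb. Gene strands were not used, so upstream and downstream were not told apart.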

How the data were processed

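Binding of VRS5-FLAG was measured in 6 DAP-seq libraries and that of the control bait GFP-FLAG in 6 others. According to the methods and the submitters' processing notes, reads were trimmed (Trimmomatic 0.39), mapped to MorexV3 (BWA 0.7.17), pooled per bait and used for peak calling with MACS2 2.2.7.1 at a genome size parameter of 5.4e9, and peaks on greenscreen regions were removed with bedtools. The deposited signal of a peak is the pileup of VRS5-FLAG reads at its summit, and its fold enrichment is the authors' ratio over GFP-FLAG. The authors deposited p and q values as -log10, of which q was used. Only positions were used from the greenscreen list, which also holds fold enrichment. In the greenscreen list, the deposited score is derived from the -log10 q. Positions are 1-based. The 49 peaks on unplaced sequence were not used.

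Pairs, shares (95% Wilson and Newcombe intervals) and medians (order-statistic intervals, Price-Bonett intervals for differences) were computed here in Python 3.11.15 with statsmodels 0.14.6, scipy 1.17.1, pandas 2.3.3 and numpy 2.4.6, and tested on simulated data. Background was (pileup + 1) / fold enrichment - 1. Gene spans were those of RefSeq for MorexV3; SOC1-like was placed through its transcript. Genes were named by rule: genes with both summits of a pair within 15 kb, genes nearest to the 5 strongest pairs, and genes holding a member summit. Genes between summits, rows of 3 and the pair with the strongest peak were named after their values were seen. Members, lists and comparisons were chosen with earlier results of these data known. Alternatives varied the q threshold, the comparison distance, the exclusion, the gene window and gene set, the measure and the position in the peak.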

Additional observations from a re-analysis of the deposited data

How the results depend on the processing

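No paired analysis was possible because libraries were pooled before peaks were called and carry no value per replicate; for the same reason leaving out single replicates was not run, nor were the alternatives on motifs, as no genome was used. With pairs sought among peaks with q below 1e-20, members fell to 362, the ratio of member to comparison pairs was 2.69 (175 against 65 pairs), the difference in median fold enrichment was 0.162 (95% interval -0.0955 to 0.419) and that in the share within 15 kb of a gene reversed to 7.96 percentage points; fewer peaks enter there, and the cause of the reversal was not tested. With the second comparison, the pair ratio was 1.94, the difference in the share within 15 kb of a gene -2.15 points, and the difference in the median absolute log2 ratio between partners 0.000827, against 0.0347 in the main comparison and 0.0220 with pileup; the last of these intervals, and that of the second comparison, included 0. The share near genes differed by -1.27 points within 5 kb and by -2.90 with all annotated genes, with intervals that left out 0. Without the exclusion, and with peak centres in place of summits (chosen after seeing the data, as were the share near genes without the exclusion and the likeness of partners in the second comparison), the number of members (2619 and 2334) stayed within 1.5 times, and the pair ratio (1.60 and 1.59) and the differences computed there (share near genes in both, median fold enrichment with centres) kept their direction, and their intervals left out or included 0 as before. What depth limits was not tested, since totals per library were not analysed here.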
